A study of Mus musculus with 22 samples.

Results

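The cohesin ring was followed through 9 of its subunit genes, out of 34745 genes quantified, in RNA from whole mouse ovaries between fetal life and 2 years of age. The genes were chosen by name: 4 meiotic forms (Rec8, Rad21l, Smc1b and Stag3) and 5 general forms (Rad21, Smc1a, Smc3, Stag1 and Stag2). All 9 passed the filter of 1 FPKM in at least 2 libraries. The general forms reached 1 FPKM in every library, Rec8 in 16, Smc1b in 15, Stag3 in 14 and Rad21l in 8. FPKM counts a gene's fragments relative to the length of its transcript and to all mapped fragments of the library, so levels can be set beside each other between genes. The study sequenced bulk RNA from wild-type CD1 mice, an outbred stock, to follow expression in the developing ovary. There were 11 ages with 2 libraries each, 22 libraries in all. E13, E15 and E17 are embryonic days, P0 is the day the mice were born, P3, P7, P14, P21 and P60 are days after birth, and Y1 and Y2 are mice of 1 and 2 years. No group carried a treatment or a mutation. Cycle stage and reproductive history are not labelled, and their effects cannot be told apart from those of age in adults. Whether replicates are separate animals, pools or repeat preparations is not stated either, and the p-values therefore reflect a spread that may be technical.

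Cohesin holds sister chromatids together from DNA replication until they part. Its ring is built from an SMC1 and an SMC3 protein closed by a kleisin, to which a STAG protein binds. Dividing somatic cells use RAD21 as the kleisin, SMC1A, and STAG1 or STAG2. Germ cells in meiosis add REC8 and RAD21L as kleisins, SMC1B and STAG3, which also form the base of the chromosome axis on which homologues synapse, while SMC3 is common to both kinds of ring. In the mouse ovary oocytes enter meiosis in the fetus and then rest until ovulation, and work in mouse oocytes has shown that REC8 cohesin laid down early holds their chromosomes together with little or no later renewal.

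The genes lie on 7 chromosomes of build GRCm38, with ends as in GENCODE release M21. Rec8 (ENSMUSG00000002324) is at chr14:55618037-55625395 on the plus strand, Rad21l (ENSMUSG00000074704) at chr2:151645404-151668533 on the minus strand, Smc1b (ENSMUSG00000022432) at chr15:85064689-85131964 on the minus strand and Stag3 (ENSMUSG00000036928) at chr5:138280240-138312393 on the plus strand. Among the general forms, Rad21 (ENSMUSG00000022314) is at chr15:51962240-51991747, Smc1a (ENSMUSG00000041133) at chrX:152016428-152062694, Smc3 (ENSMUSG00000024974) at chr19:53600398-53645833, Stag1 (ENSMUSG00000037286) at chr9:100597798-100959375 and Stag2 (ENSMUSG00000025862) at chrX:42149317-42277185. Between 0% and 2.80% of the 31-base words in their transcripts recur in another gene. The counting strand was not given, and close neighbours could therefore share reads: Ipo4 ends 4 bases from Rec8 on the opposite strand, Ribc2 starts 113 bases from Smc1b, and Gpc2 lies 234 bases from Stag3. Processed pseudogenes lie within Smc1b, Smc1a and Stag1.

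The start regions of 3 meiotic forms are printed because these genes all fell between P0 and P3. The 250 bases before the start were taken from the RefSeq promoter table, build GRCm38.p6, which held 7 of the 9 genes, and only the stretch outside every GENCODE exon is shown, 5′ to 3′ on the gene's strand. Rec8 is represented by chr14:55617916-55618036 on the plus strand, Rad21l by chr2:151668534-151668783 on the minus strand and Smc1b by chr15:85131965-85132077 on the minus strand. Capitals mark matches to CCAAT, the NF-Y word, here read as its reverse complement ATTGG, and to TTCCCGC, an E2F core word that was added after the sequences had been seen.
Rec8: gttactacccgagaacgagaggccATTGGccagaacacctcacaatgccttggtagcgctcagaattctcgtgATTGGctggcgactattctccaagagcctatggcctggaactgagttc
Rad21l: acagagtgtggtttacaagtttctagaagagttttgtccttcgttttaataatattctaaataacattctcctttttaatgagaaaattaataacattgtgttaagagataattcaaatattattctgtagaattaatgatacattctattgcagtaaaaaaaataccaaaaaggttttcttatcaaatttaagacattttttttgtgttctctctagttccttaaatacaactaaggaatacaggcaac
Smc1b: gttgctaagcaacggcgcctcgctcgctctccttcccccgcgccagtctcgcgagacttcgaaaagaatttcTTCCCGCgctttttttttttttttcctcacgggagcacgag

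Positions count from the RefSeq start, which need not be the GENCODE end given above. The Stag1 window, chr9:100643198-100643447, lies inside its GENCODE gene, and 129 bases of the Rec8 window lie in GENCODE exons. Over the whole 250 bases and both strands, Rec8 held 3 matches to CCAAT, at 226, 177 and 81 bases before its start. The last of them lies in the part not printed. Smc1b held CCAAT at 147 bases, in the part not printed, and TTCCCGC at 48 bases before its start. Stag3, whose window lies wholly inside GENCODE exons and is not printed, held CACGTG, the palindromic E-box, at 170 bases and CCAAT at 239 bases. Rad21l had no match to any word searched, a GC content of 25.6% and 1 CpG, against medians of 52.4% and 6 over 32851 mouse promoters. The other 6 windows had a GC content of 56.0% to 71.2%. Of the general forms, Smc1a held CCAAT at 19 bases, Stag1 held CCAAT at 78 bases and TTCCCGC at 16 bases, and Smc3 held none. No window of the 7 held GGCGGGA, another E2F word, or CCTCAG, a word reported for the meiotic entry factor STRA8. In all promoters, CCAAT occurred in 33.8%, CCTCAG in 22.3%, GGCGGGA in 9.75%, CACGTG in 6.02% and TTCCCGC in 3.82%. TTCCCGC read on the other strand is GCGGGAA and so shares 6 letters with GGCGGGA. A match describes letters and not a bound site.

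The libraries held an estimated 11510000 to 18200000 reads each, recovered from the spacing of low FPKM values, and 12656 to 13566 genes at 1 FPKM or more. Mitochondrial genes made up 15.4% to 24.7% of the summed FPKM of a library, and 23.9% to 24.7% at Y1 and Y2. Replicates correlated at 0.98 to 0.992 across genes, except at Y2, where the correlation was 0.94. The Y2 libraries stand apart: the summed level of 8 growing oocyte markers was 78.1 FPKM in replicate 1 and 18.1 FPKM in replicate 2. At E17 the summed level of 6 markers of dividing cells was 97.4 FPKM in replicate 1 and 177 FPKM in replicate 2. At P14 the 5 fat and oviduct markers summed to 62.9 and 406 FPKM, and at Y1 to 159 and 4.10 FPKM. The 5 red cell markers summed to 475 and 3590 FPKM at P0. As to the labelled tissue, all 6 granulosa markers and all 8 growing oocyte markers reached a mean of 1 FPKM at every age from P3 on.

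The meiotic kleisin Rec8 was highest at the first age sampled. Its levels were 20.6 and 21.7 FPKM at E13, 5.13 and 7.35 at E15, 17.5 and 12.4 at E17, and 14.8 and 13.4 at P0. After birth they were 2.56 and 2.55 FPKM at P3, 1.39 and 1.07 at P7, 1.37 and 1.39 at P14, 0.557 and 0.933 at P21, and 0.800 and 0.748 at P60. At Y1 they were 0.356 and 0.223 FPKM, and at Y2 2.44 and 1.62. Both E15 libraries thus lay below all other libraries up to P0, and both Y2 libraries above every library from P7 to Y1. In the order of mean levels, E13 was followed by E17, P0, E15, P3, Y2, P14, P7, P60, P21 and Y1. Neighbours in that order whose libraries overlapped were E17 and P0, P14 and P7, and P60 and P21.

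Changes were tested on log2(FPKM + 1) with limma across 16117 genes and called at a Benjamini-Hochberg adjusted p under 0.05. On this scale changes of low genes are understated. Rec8 fell by 1.63 on the log2 scale from E13 to E15 (adjusted p = 3.04e-05) and rose by 1.14 from E15 to E17 (adjusted p = 0.000209). The rise did not pass when only E15 and E17 entered the fit (adjusted p = 0.0612), while the fall did (adjusted p = 0.0281). The sum of 5 general germ cell markers was 232 FPKM at E13, 124 at E15 and 286 at E17, with 4 of the 5 at a mean of 1 FPKM or more and none at 0. Within that list Dazl went from 151 FPKM at E13 to 66.8 at E15 and Ddx4 from 51.0 to 21.3, while Mael was at 26.8 and 31.9 and then at 126 at E17. The 6 meiotic germ cell markers summed to 72.4, 109 and 128 FPKM at these ages, with none at 0. The sum of 6 theca and stroma markers was 496, 1324 and 435 FPKM at the same ages. Their part in the result was not tested. In bulk tissue, fewer cells of a type and less RNA per cell cannot be told apart, here and in all results that follow. From E13 to E17 Rec8 changed by -0.49 (adjusted p = 0.0473), a call that was lost in 15 of the 22 fits that left out 1 library, with an adjusted p of up to 0.373 without E17 replicate 2.

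The largest drop of Rec8 in 1 step came between P0 and P3, where it fell by 2.09 on the log2 scale, 5.53-fold in FPKM (adjusted p = 1.14e-06). From P3 to P7 it fell by a further 0.68 (adjusted p = 0.0163). That call was lost without P3 replicate 1, P3 replicate 2 or P7 replicate 2, with an adjusted p of up to 0.121. From P7 to P60 the change was -0.33 with a 95% interval of -0.71 to 0.05, which did not pass (adjusted p = 0.177).

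Rec8 was then higher at Y2 than at Y1, by 1.22 on the log2 scale and 7.01-fold in FPKM (adjusted p = 0.000164). It was also higher than at P60, by 0.76 and 2.62-fold (adjusted p = 0.00515). The levels stand for an estimated 13 and 7.43 reads at Y1 and 77.4 and 59.5 reads at Y2. Both calls held in every fit that left out 1 library, and both were lost when only the compared ages entered the fit, with adjusted p of 0.0982 against Y1 and 0.128 against P60. The sum of the 5 general germ cell markers was 2.09 and 2.77 FPKM at Y1 and 3.08 and 2.11 at Y2, with none of the 5 at a mean of 1 FPKM and none at 0 at either age. The 6 immune markers summed to 81.4 and 105 FPKM at Y1 and to 282 and 198 at Y2, when all 6 were at a mean of 1 FPKM or more. The part these markers play in the result was not tested. Ipo4, the neighbour on the other strand, had means of 6.65 FPKM at Y1 and 6.03 FPKM at Y2, a value that is uncertain since 53.1% of the words in its transcripts recur elsewhere.

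The other meiotic kleisin, Rad21l, is restricted to germ cells and is needed for full synapsis of homologues in male mice. It peaked later than Rec8, with 5.85 and 6.50 FPKM at E13, 11.0 and 9.46 at E15, 11.8 and 10.7 at E17, and 4.88 and 6.74 at P0. It was at 0.486 and 0.539 FPKM at P3, 0.541 and 0.464 at P7, and 0.746 and 0.724 at P14. At P21 it was at 0.0675 and 0.0761 FPKM, and at Y1 at 0.0339 and 0.0371, about the worth of 1 read. All 4 libraries of P60 and Y2 listed it at 0, where 3 reads, the limit that a count of 0 allows, would be 0.0994 to 0.124 FPKM. The order of mean levels was E17, E15, E13, P0, P14, P3, P7, P21 and Y1, with P60 and Y2 at 0. Libraries of E17 and E15, of E13 and P0, and of P3 and P7 overlapped. The 8 libraries with at least 1 FPKM were those of E13, E15, E17 and P0. Rad21l thus passed the filter only through the ages where it was high.

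From E13 to E15 Rad21l rose by 0.64 on the log2 scale (adjusted p = 0.00146), the interval in which Rec8 fell. It fell by 0.86 from E17 to P0 (adjusted p = 0.000251) and by 2.16 from P0 to P3 (adjusted p = 1.69e-08), where its FPKM dropped 11.3-fold. The E17 to P0 call was lost when only those ages entered the fit (adjusted p = 0.103). A further fall of 0.69 came between P14 and P21 (adjusted p = 0.000469), with the libraries of both ages below 1 FPKM. Between those ages the sum of the 6 meiotic germ cell markers went from 7.34 to 1.12 FPKM and that of the growing oocyte markers from 1966 to 241. Of the 6 meiotic markers, 2 were at a mean of 1 FPKM or more at P14 and 0 at P21. What part the marker lists had in the fall was not tested.

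**Figure D1:**
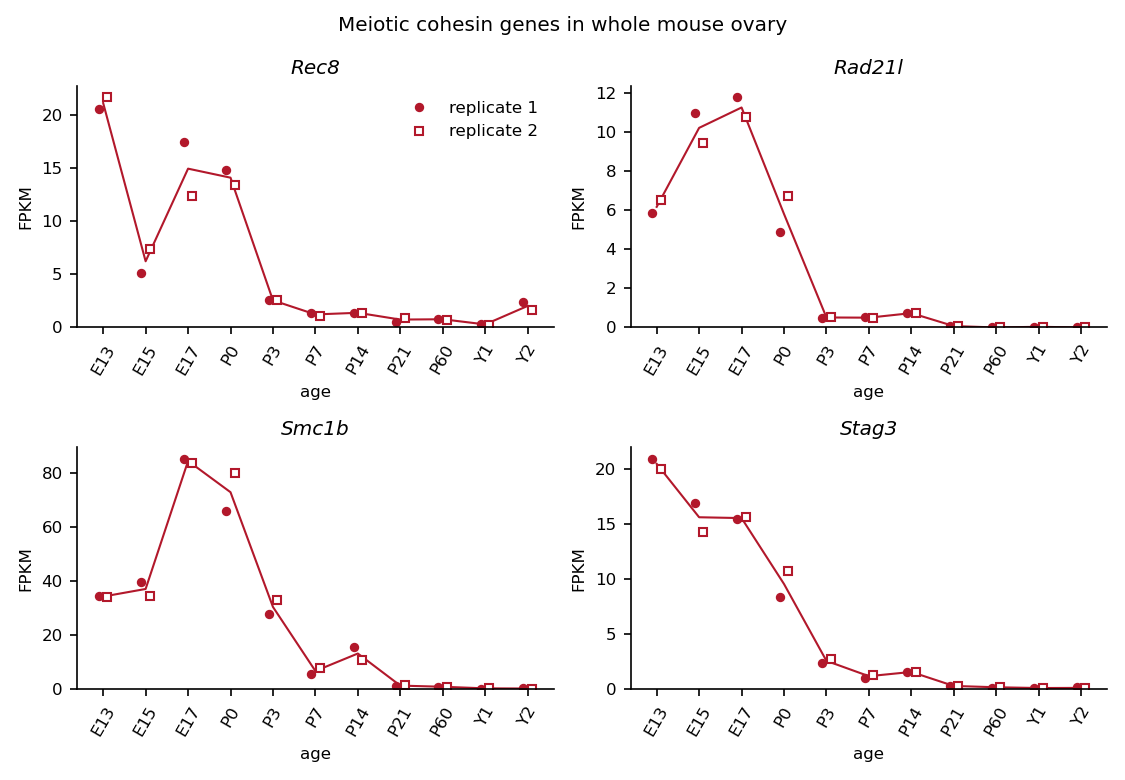
Levels of the 4 meiotic cohesin genes (FPKM, linear axes from 0) at the 11 ages; filled circles are replicate 1, open squares replicate 2, and the line joins the means of the 2 libraries. Rec8 dips at E15, Smc1b reaches 84.3 FPKM at E17, and all 4 genes are low from P21 on.

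Rad21, the general kleisin, stayed within 53.3 and 95.7 FPKM in all 22 libraries, with a median of 77.4. It was at 95.7 and 91.7 FPKM at E13, above every other library, at 78.0 and 75.6 at E15, 66.1 and 79.2 at E17, and 79.8 and 83.7 at P0. It was at 80.5 and 78.9 FPKM at P7, 73.3 and 76.7 at P21, 62.9 and 58.4 at P60, 55.9 and 57.9 at Y1, and 63.1 and 53.3 at Y2. The 6 adult libraries were the lowest of all, and those of Y2 overlapped with P60 and with Y1. Between E13 and E17 Rad21 fell by 0.37 on the log2 scale (adjusted p = 0.00633), a call lost without E13 replicate 1 or E17 replicate 1 (adjusted p up to 0.0939). From P7 to P60 Rad21 fell by 0.39 on the log2 scale (adjusted p = 0.00388). Its change from E17 to P7 was 0.14, with a 95% interval of -0.06 to 0.33 (adjusted p = 0.261). The step from P21 to P60 was -0.30 (adjusted p = 0.0397), a call lost in 14 of 22 fits that left out 1 library, with an adjusted p of up to 0.251 without P60 replicate 2.

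Smc1b, the meiotic SMC1 subunit, had the highest mean level of the 4 meiotic forms from E13 to P60. In mice without it, oocytes lose cohesion as they age. It was at 34.3 and 34.1 FPKM at E13, 39.5 and 34.5 at E15, 85.0 and 83.6 at E17, and 65.8 and 79.7 at P0. It was at 27.9 and 32.8 FPKM at P3, 5.60 and 7.71 at P7, 15.4 and 10.8 at P14, and 0.929 and 1.56 at P21. In adults it was at 0.729 and 0.912 FPKM at P60, 0.148 and 0.308 at Y1, and 0.272 and 0.0737 at Y2, the last pair standing for an estimated 16.0 and 5.01 reads. From highest to lowest mean the order was E17, P0, E15, E13, P3, P14, P7, P21, P60, Y1 and Y2, a span of 487-fold. Among neighbours in this order, the libraries of Y1 and Y2 overlapped. E15 and E13, P0 and E17, P60 and P21, and Y1 and P60 did not overlap, but their differences did not pass the test. That of Y1 and P60 was -0.57 (adjusted p = 0.0505) and passed in 8 of the 22 fits without 1 library, with an adjusted p of 0.0343 to 0.269. It also passed with a pseudocount of 0.1 (adjusted p = 0.00776), after rescaling without mitochondrial genes (0.00671), when only those ages entered the fit (0.0493) and without both Y2 libraries (0.0367).

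Smc1b rose by 1.17 on the log2 scale from E15 to E17, 2.28-fold in FPKM (adjusted p = 0.000207). It fell by 1.23 from P0 to P3 (adjusted p = 0.000199) and by 2.04 from P3 to P7 (adjusted p = 3.31e-06). From P3 to P7 Rad21l changed by -0.01 (adjusted p = 0.984), and the difference between the genes was not tested. From P7 to P14 Smc1b was higher by 0.88 (adjusted p = 0.0133), and the libraries of those ages did not overlap. That call was lost without P7 replicate 1 or P14 replicate 1, with an adjusted p of up to 0.175, when only those ages entered the fit (0.287), with a pseudocount of 0.1 (0.165) and after rescaling without mitochondrial genes (0.0693). The rescaling and the pseudocount of 0.1 are not separate checks, as given above. Over the same step the 5 germ cell markers summed to 55.2 and 59.2 FPKM and the 6 meiotic markers to 2.55 and 7.34. Of the meiotic markers, 1 was at a mean of 1 FPKM or more at P7 and 2 at P14. Stra8 was at 0 at both ages and Syce3 at P7. For Smc1b too, the part of the marker lists in the result was not tested.

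From P14 to P21 Smc1b fell by 2.65 on the log2 scale, 10.5-fold in FPKM (adjusted p = 1.63e-07). The sum of the growing oocyte markers fell from 2217 and 1714 FPKM to 220 and 261 across that step, all 8 being at a mean of 1 FPKM or more at both ages. As before, their part in the result was not tested. Against P60, Smc1b was lower at Y2 by 0.64 (adjusted p = 0.0169). The call was lost without P60 replicate 2 or Y2 replicate 2, with an adjusted p of up to 0.106, and when only those ages entered the fit (0.0936).

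Smc1a, the general SMC1 subunit, ranged from 20.5 to 36.0 FPKM. It was at 36.0 and 35.5 FPKM at E13, 30.7 and 26.3 at E15, 24.4 and 31.5 at E17, 28.5 and 29.6 at P7, 26.1 and 24.7 at P60, 21.1 and 20.5 at Y1, and 26.6 and 21.05 at Y2. Both E13 libraries were above all others, and the libraries of E17 and P7 overlapped. Between E13 and E17 it changed by -0.36 on the log2 scale (adjusted p = 0.0353). That call was lost without E13 replicate 1, E13 replicate 2 or E17 replicate 1, with an adjusted p of up to 0.362. From E17 to P7, when Smc1b fell by 3.49, Smc1a changed by 0.06 with a 95% interval of -0.19 to 0.32 (adjusted p = 0.73).

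Smc3, which both kinds of ring use, was at 59.3 and 58.5 FPKM at E13, 41.1 and 35.9 at E15, 27.8 and 35.1 at E17, and 34.4 and 33.8 at P0. It was at 24.7 and 34.2 FPKM at P7, 31.8 and 31.4 at P14, 25.8 and 25.0 at P60, 21.1 and 22.5 at Y1, and 27.5 and 18.0 at Y2. The E13 libraries were the highest, and those of E17 and P7 overlapped. From E13 to E17 Smc3 fell by 0.89 on the log2 scale (adjusted p = 0.000938), and this call held without any 1 library, with an adjusted p of at most 0.0174. No step after E15 passed the test.

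**Figure D2:**
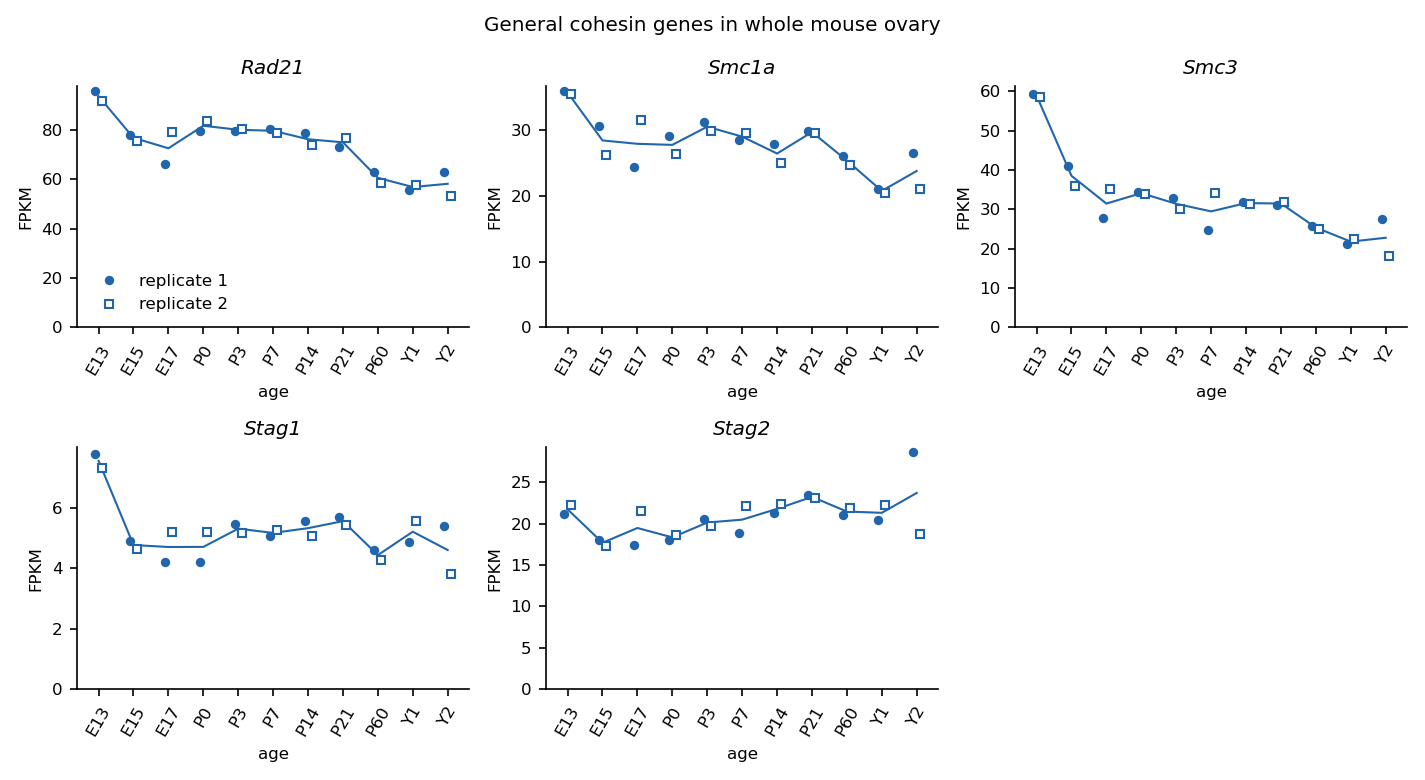
Levels of the 5 general cohesin genes (FPKM, linear axes from 0) at the 11 ages; filled circles are replicate 1, open squares replicate 2, and the line joins the means of the 2 libraries. Rad21, Smc1a, Smc3 and Stag1 are highest at E13, and Stag2 ranges from 17.3 to 28.6 FPKM with its highest library at Y2.

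Stag3, the meiotic STAG subunit and a requirement for meiosis in both sexes of the mouse, was at 20.9 and 20.0 FPKM at E13, 16.9 and 14.3 at E15, 15.5 and 15.6 at E17, and 8.40 and 10.7 at P0. It was at 2.38 and 2.73 FPKM at P3, 1.03 and 1.29 at P7, 1.53 and 1.57 at P14, and 0.289 and 0.259 at P21. In adults it was at 0.127 and 0.185 FPKM at P60, 0.0820 and 0.0897 at Y1, and 0.137 and 0.0593 at Y2. The mean levels ran in the order of age except that P14 lay above P7 and Y2 above Y1. Libraries of E15 and E17, of P60 and Y2, and of Y2 and Y1 overlapped. The Y2 values stand for an estimated 9.31 and 4.66 reads, and the pseudocount of 1 also compresses values this low. None of the differences among adult ages passed the test.

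Stag3 fell by 0.66 on the log2 scale from E17 to P0 (adjusted p = 0.00143), by 1.56 from P0 to P3 (adjusted p = 2.47e-07), by 0.72 from P3 to P7 (adjusted p = 0.00047) and by 1.00 from P14 to P21 (adjusted p = 1.44e-05). The first of these was lost when only the compared ages entered the fit (adjusted p = 0.105). From E13 to E17 it changed by -0.38 (adjusted p = 0.0197), a call lost without any 1 of the 4 libraries of those ages, with an adjusted p of up to 0.108. From E13 to E15 it changed by -0.37 (adjusted p = 0.0269), a call lost without E13 replicate 1, E13 replicate 2 or E15 replicate 2 (adjusted p up to 0.247). At E17 Stag3 was thus at 15.5 FPKM on average while Smc1b was at 84.3, Rec8 at 14.96 and Rad21l at 11.3.

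Stag1, a general STAG subunit, was the lowest general form, at 3.81 to 7.79 FPKM. It was at 7.79 and 7.31 FPKM at E13, 4.88 and 4.64 at E15, 4.20 and 5.196 at E17, 5.06 and 5.27 at P7, 4.60 and 4.27 at P60, 4.85 and 5.56 at Y1, and 5.39 and 3.81 at Y2. Both E13 libraries lay above all others, and the libraries from E15 on lay between 3.81 and 5.69 FPKM. From E13 to E17 it fell by 0.59 on the log2 scale (adjusted p = 0.00315). That call held without any 1 library, and reached an adjusted p of 0.0507 when only those ages entered the fit.

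Stag2, the other general STAG subunit, lay between 17.3 and 28.6 FPKM. It was at 21.2 and 22.2 FPKM at E13, 18.0 and 17.3 at E15, 17.4 and 21.5 at E17, 18.8 and 22.1 at P7, 23.4 and 23.0 at P21, 21.03 and 21.9 at P60, and 28.6 and 18.8 at Y2. Its highest library was Y2 replicate 1, and the Y2 libraries spanned those of all ages from P3 to Y1. In a test over all 11 ages at once, 8 of the 9 genes passed and Stag2 did not (adjusted p = 0.275). Of all genes tested, 88.1% passed that test, so the count of members is near the background.

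The share of the meiotic form was followed in each class of subunit. Smc1b made up 48.9% ± 0.106 (SD, n = 2) of the SMC1 transcripts, as summed FPKM, at E13, 75.2% ± 3.59 at E17 and 72.2% ± 4.09 at P0. Its share was still 49.8% ± 3.62 at P3, then 18.5% ± 3.02 at P7, 32.9% ± 3.84 at P14, 4.02% ± 1.41 at P21 and 0.682% ± 0.471 at Y2. Stag3 made up 41.1% ± 1.05 of STAG transcripts at E13, 39.3% ± 3.48 at E17, 29.2% ± 2.47 at P0 and 9.14% ± 1.09 at P3, and 0.332% ± 0.0985 at Y2. Rec8 and Rad21l together made up 22.6% ± 1.31 of the kleisins at E13, 26.7% ± 5.69 at E17, 19.6% ± 0.280 at P0 and 3.69% ± 0.0125 at P3. At P3, then, the meiotic share of SMC1 lay above that of STAG, and that of STAG above that of the kleisins, with no overlap between libraries.

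Within the kleisins, Rec8 held 17.5% and Rad21l 5.11% at E13, against 6.70% and 10.9% at E15. Their order was reversed at E15, and the libraries of the 2 genes did not overlap at either age. At E17 the shares were 15.2% and 11.4%. In the adult the summed kleisin share was 1.26% at P60, 0.570% ± 0.174 at Y1 and 3.33% ± 0.542 at Y2, all of the Y2 share being Rec8.

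**Figure D3:**
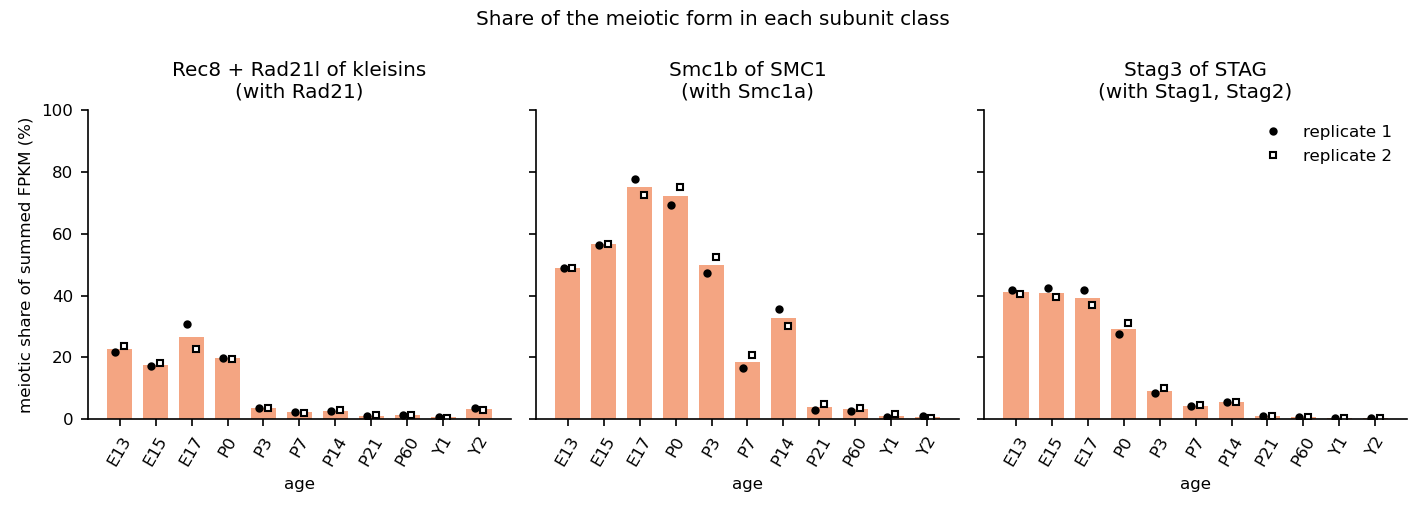
Share of the meiotic form in the summed FPKM of its subunit class (%, axes start at 0); bars are means of 2 libraries, circles replicate 1 and squares replicate 2. At P3 the share is 49.8% for SMC1, 9.14% for STAG and 3.69% for the kleisins.

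The ratio of each meiotic form to its general counterpart was compared between the 6 fetal libraries (E13, E15, E17) and the 6 adult libraries (P60, Y1, Y2), a measure that does not depend on the scaling of a library apart from the pseudocount. On the log2(FPKM + 1) scale the mean ratio of Smc1b to Smc1a went from 0.62 ± 0.77 (SD, n = 6) in fetal to -4.14 ± 0.26 in adult libraries, a difference of -4.76. Stag3 to Stag1 differed by -3.82, Stag3 to Stag2 by -4.18 and Rec8 to Rad21 by -2.38. For each of these 4 ratios the fetal and adult libraries did not overlap, and the exact two-sided permutation test gave 0.00216, the smallest value that 6 libraries against 6 allow (adjusted over the 5 ratios computed, also 0.00216). How often other pairs of genes separate in this way was not counted, and 88.1% of all genes passed the test over all ages. The permutation test takes libraries of 1 age as independent. With the mean of each age as 1 value, 3 ages against 3, it gave 0.1, the smallest value that this design allows. Rad21l to Rad21 gave -2.84, but Rad21l was at 0 or at about 1 read in all 6 adult libraries, so its adult ratio is set by the pseudocount and no test of it is given. Stag3 was also low in the 6 adult libraries, at 0.0593 to 0.185 FPKM, an estimated 4.66 to 15.7 reads. The size of the Stag3 differences is therefore set largely by the pseudocount too. With a pseudocount of 0.1 the difference was -6.13 for Stag3 to Stag1, -6.52 for Stag3 to Stag2 and -5.89 for Rad21l to Rad21, each over 1.5 times the value above. The fetal values were printed with fewer decimals in the deposited table than the postnatal ones, and a difference in how they were quantified cannot be told apart from fetal against postnatal age.

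The 4 longer intervals were compared next. From E13 to E17, 8 of 9 genes passed, against 32.7% of all genes: Rad21l and Smc1b were higher (18.6% of all genes were), and Rec8, Stag3, Rad21, Smc1a, Smc3 and Stag1 were lower (14.2%). Rad21l rose by 0.77 (adjusted p = 0.000171) and Smc1b by 1.28 (adjusted p = 9.92e-05). The count was 4 when only those ages entered the fit or without E13 replicate 1, and 5 without E13 replicate 2 or E17 replicate 1. Without E13 replicate 1 the number of genes called among all genes also went from 5273 to 3514, and without E13 replicate 2 to 3469. The markers of dividing cells summed to 178 and 178 FPKM at E13 and to 97.4 and 177 at E17, all 6 at a mean of 1 FPKM or more, and their part in the result was not tested.

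From E17 to P7 all 4 meiotic forms and none of the 5 general forms passed, against 37.3% of all genes in either direction and 20.7% lower. Rec8 fell by 2.83 on the log2 scale, 12.2-fold in FPKM (adjusted p = 1.31e-08), and Rad21l fell by 3.03, 22.4-fold (adjusted p = 1.21e-10). Smc1b fell by 3.49, 12.7-fold (adjusted p = 1.92e-09), and Stag3 fell by 2.94, 13.4-fold (adjusted p = 1.2e-10). The median over the 4 was -2.98, that over the 5 general forms 0.07 and that over all genes -0.04. The 95% intervals of the general forms ran from -0.46 at the lowest, for Smc3, to 0.40 at the highest, for Stag1. Over the same interval the meiotic germ cell markers went from 128 and 127 FPKM to 2.56 and 2.54, with Stra8 and Syce3 at 0 at P7, and the growing oocyte markers from 11.4 and 9.47 to 1881 and 1838. Whether they had a part in the result was not tested. Each of the 4 calls held in all 22 fits without 1 library.

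From P7 to P60, 3 of 4 meiotic and 1 of 5 general forms passed, all lower, against 35.1% of all genes, 21.8% being lower. Smc1b fell by 2.06 (adjusted p = 1.11e-06) and Stag3 by 0.90 (adjusted p = 2.66e-05). Rad21l, below 1 FPKM at P7 and at 0 in both P60 libraries, fell by 0.59 (adjusted p = 0.00127). Rad21 fell by 0.39, as given above. From P60 to Y2, 2 of 9 passed, Rec8 higher and Smc1b lower, against 28.2% of all genes, of which 10.8% were higher and 17.4% lower, so the share of members is near the background. That count was 1 without P60 replicate 2 and 0 when only those ages entered the fit. Leaving out P60 replicate 1 took the calls among all genes from 4548 to 2866.

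Between neighbouring ages, 19 of 40 gene and step pairs of the meiotic forms passed, 5 higher and 14 lower, and 4 of 50 of the general forms, all lower. Over all genes and the 10 steps the share was 19.6%. In order of age the share of all genes called in a step was 24.3% at E15, 34.4% at E17, 16.8% at P0, 23.2% at P3, 16.8% at P7, 3.7% at P14, 26.8% at P21, 13.5% at P60, 14.4% at Y1 and 21.8% at Y2. Only the step from P0 to P3 was called for all 4 meiotic forms, where 11.2% of all genes were lower. Over that step the 5 germ cell markers went from 187 and 208 FPKM to 103 and 124, with none at 0, and the 6 meiotic markers from 58.2 and 60.2 to 8.22 and 8.07, with Stra8 at 0 at P3. Growing oocyte markers went from 117 and 98.0 FPKM to 1356 and 1552. The part of these markers in the joint fall was not tested. The 3 general calls outside P60 were at E15 against E13, for Rad21 (-0.28, adjusted p = 0.0359), Smc3 (-0.60, adjusted p = 0.0174) and Stag1 (-0.57, adjusted p = 0.00628). The Rad21 call was lost without any 1 of the 4 libraries of those ages (adjusted p up to 0.176). The Smc3 call was lost without E13 replicate 1, E13 replicate 2 or E15 replicate 2 (up to 0.142), and the Stag1 call without E13 replicate 1 or E15 replicate 2 (up to 0.0555).

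**Figure D4:**
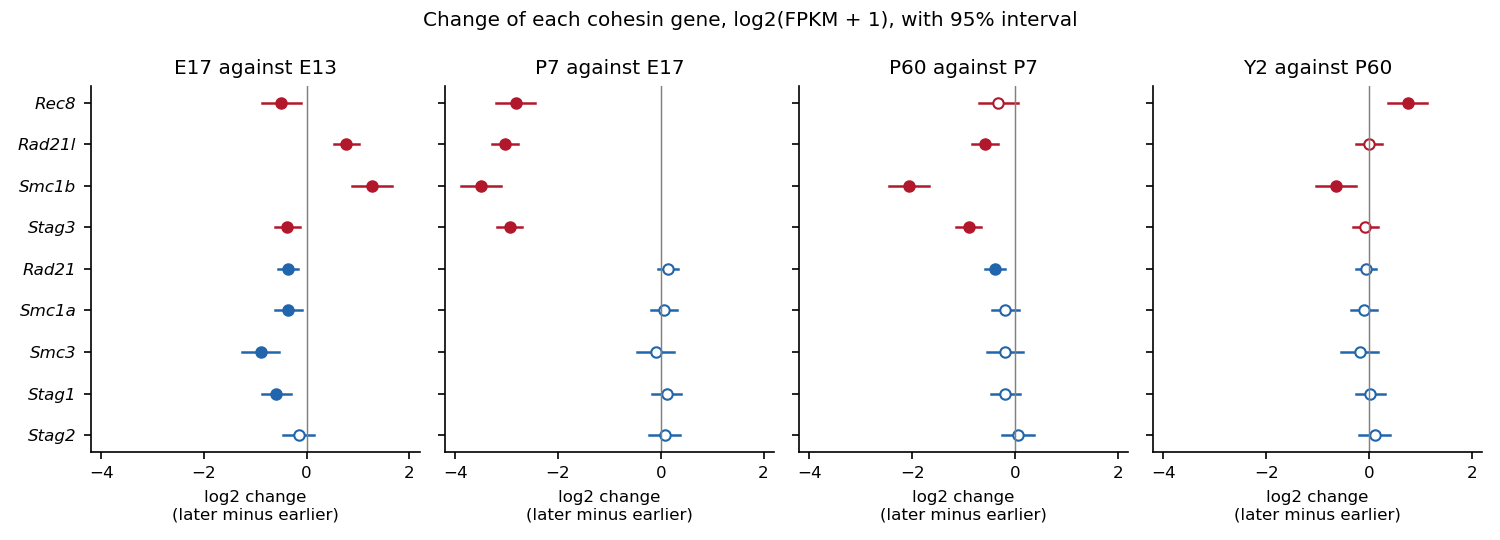
Change of each cohesin gene over 4 intervals (later minus earlier age, log2(FPKM + 1)); points are limma estimates with 95% intervals, filled where the adjusted p was under 0.05, red for meiotic and blue for general forms. From E17 to P7 the 4 red points lie between -3.49 and -2.83 and the 5 blue points near 0.

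The other genes of the cohesin pathway were counted by lists. The list for cohesin loading, release, acetylation and related steps held 11 genes, among them Ddx11, Hdac8 and Ctcf. Of these 11, 0 were higher and 2 lower from E13 to E17, and 3 higher and 0 lower from E17 to P7. From P7 to P60 the counts were 0 and 5, and from P60 to Y2 they were 0 and 5. Of all genes 18.6% were higher and 14.2% lower in the first interval, 16.6% and 20.7% in the second, 21.8% lower in the third, and 10.8% higher and 17.4% lower in the last, so 2 lower of 11 from E13 to E17 is near the background. Cdca5 encodes sororin, which protects cohesin from release in dividing cells. It rose from 10.01 and 11.0 FPKM at E17 to 21.5 and 23.6 at P7, by 1.04 on the log2 scale (adjusted p = 0.000238), and fell to 5.89 and 4.98 at P60 (by 1.88, adjusted p = 1.39e-06) and to 2.50 and 1.501 at Y2 (by 1.12, adjusted p = 0.000198). Esco2, an acetyltransferase of SMC3 in S phase, fell from 27.4 and 25.8 FPKM at E13 to 14.8 and 17.7 at E17 (by 0.68, adjusted p = 0.00597), a call lost without E17 replicate 1 (adjusted p = 0.0667). It fell by 1.53 from P7 to P60 (adjusted p = 7.35e-06) and by 1.29 from P60 to Y2 (adjusted p = 4.64e-05). Pds5b, which binds cohesin together with the release factor WAPL, changed by -0.47 from E13 to E17 (adjusted p = 0.00516, but 0.0509 without E17 replicate 1). Ddx11, a helicase active in cohesion, was higher by 0.38 from E17 to P7 (adjusted p = 0.0308), a call lost without E17 replicate 1, E17 replicate 2 or P7 replicate 2 (adjusted p up to 0.188). The count from E13 to E17 was 0 without E17 replicate 1 and 4 at the highest without a Y2 library. From P7 to P60 it was 3 at the lowest on leaving out P7 replicate 1, P60 replicate 1 or P60 replicate 2, and from P60 to Y2 it was 2 at the lowest on leaving out P60 replicate 1, P60 replicate 2 or Y2 replicate 2.

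Of 11 tested genes that cleave cohesin or guard it at centromeres, 2 were higher and 6 lower from E13 to E17, 3 higher and 2 lower from E17 to P7, 0 and 9 from P7 to P60, and 0 and 7 from P60 to Y2. Sgol2b was below the filter. The 2 of 11 higher from E13 to E17 are near the 18.6% of all genes, and the 2 lower from E17 to P7 near the 20.7%. The 9 lower from P7 to P60 and the 7 lower from P60 to Y2 stand beside 21.8% and 17.4% of all genes. Meikin, which in mouse meiosis I helps to protect REC8 at centromeres, was at 0 and 0.0465 FPKM at E13 and at 1.504 and 0.946 at E17, a rise of 1.11 on the log2 scale (adjusted p = 6.6e-05). Sgol2a, the shugoshin that shields REC8 in mouse oocytes, fell from 8.35 and 7.81 FPKM to 3.66 and 4.84 over the same days (by 0.80, adjusted p = 0.000389), with 35.0% of its words shared with other genes and its reads therefore uncertain. Espl1 encodes separase, the protease that cuts the kleisin. It fell from 17.4 and 18.8 FPKM at E17 to 10.5 and 10.1 at P7 (by 0.76, adjusted p = 0.000578), to 4.37 and 3.93 at P60 (by 1.13, adjusted p = 2.13e-05) and to 1.37 and 0.727 at Y2 (by 1.35, adjusted p = 5.08e-06). Pttg1, securin, which holds separase inactive, was higher at P7 than at E17 by 1.15 (adjusted p = 0.000405), with 4.38 and 5.10 FPKM against 16.0 and 8.53. The checkpoint kinase gene Bub1 fell by 0.84 from E13 to E17 (adjusted p = 2.56e-05), by 0.82 from E17 to P7 (adjusted p = 1.88e-05) and fell by 1.45 from P60 to Y2 (adjusted p = 1.19e-07). Gsg2, the gene of the kinase haspin, fell by 1.23 from P7 to P60 (adjusted p = 7.22e-07). Plk1 was higher at P7 than at E17 by 0.54 (adjusted p = 0.00508) and Ppp2r5a higher at E17 than at E13 by 0.45 (adjusted p = 0.00199), with 18.7% and 28.0% of their words shared with other genes.

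The condensin and SMC5/6 complexes are the other SMC rings of the cell. The 15 tested genes of this list were subunits of these complexes and Smchd1. Of these 15, 1 was higher and 4 lower from E13 to E17, and 1 higher and 3 lower from E17 to P7. From P7 to P60 the counts were 0 and 10, and from P60 to Y2 they were 1 and 5. Eid3 was not analysed here. In either direction, the 5 of 15 called from E13 to E17 and the 4 of 15 from E17 to P7 are near or under the 32.7% and 37.3% of all genes. By direction, the 4 lower and 1 higher from E13 to E17 stand beside 14.2% and 18.6% of all genes. The 3 lower and 1 higher from E17 to P7 stand beside 20.7% and 16.6%. The 10 and 5 lower later stand beside 21.8% and 17.4%. Smc2, a condensin core subunit, went from 36.4 and 35.5 FPKM at E13 to 17.1 and 27.0 at E17 (-0.71, adjusted p = 0.00468), and Ncapg2 changed by -0.59 (adjusted p = 0.0127). Without E17 replicate 1 the adjusted p was 0.0756 for Smc2 and 0.19 for Ncapg2, whose call was also lost without E13 replicate 2. Its partner Smc4 fell by 0.81 from E17 to P7 (adjusted p = 0.0025). Ncaph fell by 0.95 from P7 to P60 (adjusted p = 6.14e-06) and by 1.15 from P60 to Y2 (adjusted p = 1.12e-06). Ncapg, of which 12.5% of words are shared with other genes, fell by 1.23 and 1.17 over those intervals (adjusted p = 1.59e-06 and 3.11e-06). Of SMC5/6 subunit genes, Nsmce4a was higher at P7 than at E17 by 0.46 (adjusted p = 0.00125) and Smc5 changed by -0.36 (adjusted p = 0.0442), a call lost in 17 of 22 fits without 1 library (adjusted p up to 0.535 without P7 replicate 1). Ndnl2 was higher at E17 than at E13 by 0.41 (adjusted p = 0.04), lost in 6 such fits (up to 0.161 without E13 replicate 2), and Nsmce1 higher at Y2 than at P60 by 0.32 (adjusted p = 0.0192), lost without P60 replicate 1 or Y2 replicate 2 (up to 0.164). The count from E13 to E17 went from 5 to 0 at the lowest on leaving out E13 replicate 1, E13 replicate 2 or E17 replicate 1, and that from E17 to P7 from 4 to 7 without E17 replicate 1. From P7 to P60 it was 6 at the lowest without P7 replicate 2 or P60 replicate 2, and from P60 to Y2 it was 3 without P60 replicate 1.

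These 3 lists hold genes that dividing cells use, and the 6 dividing cell markers summed to 178 FPKM at E13, 137 at E17, 119 at P7, 58.2 at P60 and 17.4 at Y2. All 6 were at a mean of 1 FPKM or more up to Y1, and 5 at Y2. Their part in the results was not tested. The median change of the 3 lists from P60 to Y2 was -0.22, -0.97 and -0.21, beside -0.04 over all genes and -0.06 over the 5 general cohesins. When only the compared ages entered the fit, none of the genes of these lists passed from P60 to Y2. From E17 to P7 the genes called in that fit went from 3 to 1, 5 to 3 and 4 to 1 in the 3 lists, in the order given. The calls lost included those of Pttg1 and Smc4 (adjusted p = 0.0783 and 0.0825). From E13 to E17 the count of the condensin and SMC5/6 list went from 5 to 1 in that fit. Rad21, Smc1a, Smc3 and Stag2 were above 18 FPKM in every Y2 library, and Stag1 was at 5.39 and 3.81 FPKM there.

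The 10 genes of the chromosome axis and synaptonemal complex, the structure that joins homologues, had 6 higher and 1 lower from E13 to E17, 0 and 10 from E17 to P7, 0 and 6 from P7 to P60, and 0 and 1 from P60 to Y2. The shares of all genes were 18.6% higher and 14.2% lower, then 20.7%, 21.8% and 17.4% lower. Sycp1, its transverse filament, rose from 11.3 and 10.8 FPKM at E13 to 85.0 and 84.2 at E17 (by 2.83, adjusted p = 3.08e-09) and fell to 1.28 and 1.15 at P7 (by 5.27, adjusted p = 3.5e-12), with 15.6% of its words shared with other genes. Syce3, a central element gene, rose by 2.68 over the first interval (adjusted p = 2.68e-08) and was listed at 0 in both P7 libraries. Hormad2 changed by -0.37 from E13 to E17 (adjusted p = 0.0133), a call lost without E13 replicate 2 or E17 replicate 2 (adjusted p up to 0.0861). Sycp3, an axis gene that shares 46.5% of its words with other genes, was still at 14.8 and 16.2 FPKM at P7 and fell by 3.43 to P60 (adjusted p = 3.02e-08), and Syce1 fell by 2.04 (adjusted p = 5.14e-06). Syce2 fell by 0.83 from P60 to Y2 (adjusted p = 0.000289), a call lost when only those ages entered the fit (adjusted p = 0.127). That count of 1 in the list was 2 without P14 replicate 1, P14 replicate 2 or P60 replicate 2. It was 0 with only the compared ages in the fit, 4 after rescaling without mitochondrial genes and 5 with a pseudocount of 0.1. The rescaling also lowers the weight of the pseudocount, so it is not a separate check from the pseudocount of 0.1. The median of the list from E17 to P7 was -3.48, beside -2.98 for the meiotic cohesins.

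**Figure D5:**
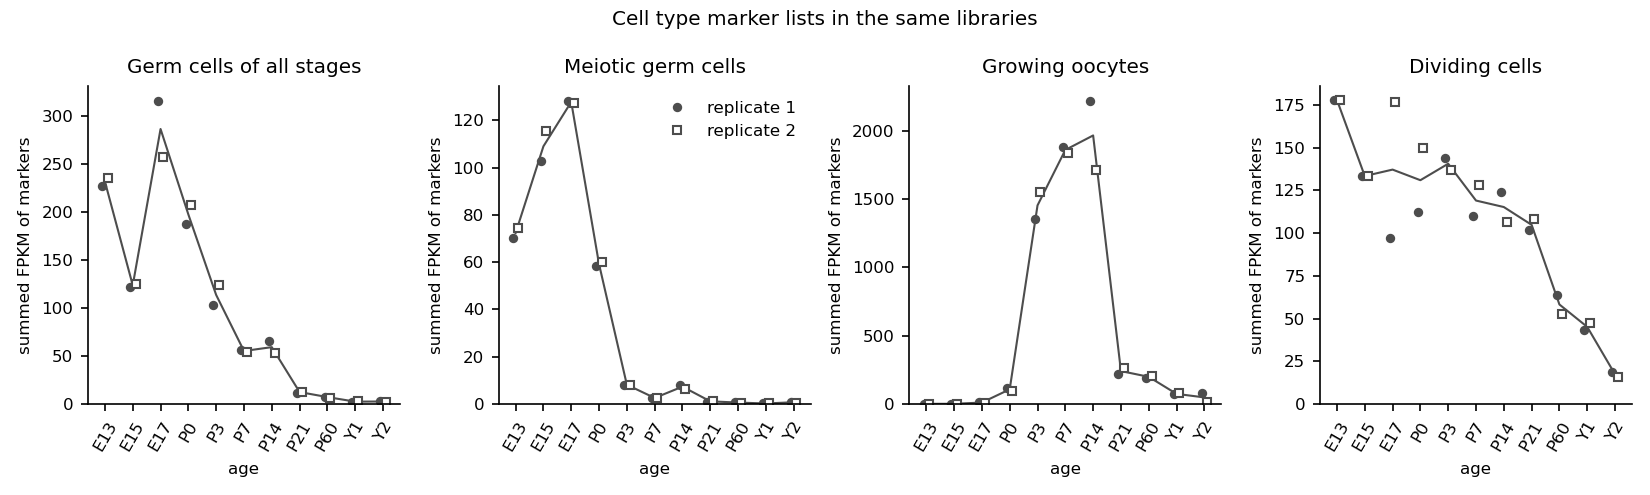
Summed FPKM of 4 fixed marker lists (linear axes from 0) at the 11 ages; filled circles are replicate 1, open squares replicate 2, and the line joins the means of 2 libraries. General germ cell markers dip to 124 FPKM at E15, growing oocyte markers reach 1966 FPKM at P14, and markers of dividing cells decline to 17.4 FPKM at Y2.

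Among 6973 genes that reached a mean of 10 FPKM at some age, those whose age means were most like each member were ranked by Pearson's r over the 11 ages on the log2(FPKM + 1) scale, as a description. The ages share their libraries and their mix of cells. The closest to Rec8 were Lbr (0.957), Polr2b and Mmp15, and to Rad21l Ccnh (0.989), Polr2f and Taf7l. Pearson's r does not compare the size of a change. The highest and lowest age means were 21.1 and 0.289 FPKM for Rec8 and 14.4 and 4.98 for Lbr. For Polr2b they were 35.8 and 20.1 FPKM, and for Mmp15 35.0 and 4.66. They were 11.3 and 0 FPKM for Rad21l and 11.3 and 4.51 for Ccnh. For Polr2f they were 61.0 and 31.3 FPKM, and for Taf7l 134 and 0. Those closest to Smc1b were Phc1 (0.992), Syce1 and Tbc1d7, and to Stag3 Tex12 (0.990) and Hormad1. Syce1, Tex12 and Hormad1 are on the axis and synapsis list above. Those close to Rad21 included Mcm7 (0.973) and Usp1, and the closest were for Smc1a Fxr1 (0.948), Sf3b2 and Kpnb1, and for Smc3 Dgcr8 (0.9753), Wdr75 and Nup188. Stag1 was closest to Polr3b (0.938), Chgb and Utf1, and Stag2 to Srrm2 (0.922), Ppp1r12a and Ddx26b. Reads of Hormad1, Mcm7, Usp1, Dgcr8 and Polr2f are uncertain, since 15.6% to 36.3% of their words recur in other genes. Ranks within 0.02 of the best were shared by 27 genes for Smc1b and by 1 for Stag1.

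Among the members themselves, the 4 meiotic forms correlated with each other at 0.833 to 0.970 over the 11 age means, and Rad21l with Stag3 most closely. Rad21, Smc1a and Smc3 correlated with each other at 0.879 to 0.913. Between them and the 4 meiotic forms r was 0.460 to 0.800. For Stag2, which did not pass the test over all ages and whose age means span 1.34-fold, r with the meiotic forms was -0.739 to -0.522.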

How the data were processed

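The deposited table holds FPKM calculated by the authors, with 1 column per library. Per the submitters' processing notes HISAT2, StringTie, edgeR and build mm10 were used. The series' design text names TopHat; the versions and the annotation were not given in the sources used here. In the labels' protocols an age P5 is listed that has no library, and Y1 is missing. Fetal values carry a median of 9 decimals and postnatal ones 14, and whether both came from 1 run is not known. Of 34745 genes, 16117 had at least 1 FPKM in at least 2 libraries. They were tested as log2(FPKM + 1) by limma (version 3.58.1, R 4.3.3; lmFit, then eBayes with its trend option) in a single fit with age as the factor, which left 11 residual degrees of freedom. P-values were Benjamini-Hochberg adjusted over all genes within each comparison and called at 0.05. All 9 cohesin genes are named; of each other list the 2 largest rises and the 2 largest falls past the threshold in each longer interval, and the 3 genes of highest r to each member, apart from 2 that are not reported here. The members, lists and comparisons were chosen with earlier results of these data known.

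Depth was estimated from values under 0.2 FPKM, which are multiples of what 1 read is worth: 1158 to 1444 values per library were checked, and 94.4% to 96.9% were whole within 0.02 reads. Reads per gene are therefore approximate, and limits of 3 reads cover counting error only. No count test was run, since reads of genes with several transcripts could not be recovered. Ratios were compared by exact permutation with scipy 1.17.1. The fits and the depth estimate were tested on simulated data. Alternatives were a pseudocount of 0.1, no filter, 3 other scalings, other fits, and each library left out.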

Additional observations from a re-analysis of the deposited data

How the results depend on the processing

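Of 18 member calls over the 4 longer intervals, 13 held in all fits that left out 1 library and 11 in every alternative tried; none reversed. Of 23 calls in the other steps 16 and 12 did, and of 39 calls of list genes 30 and 21. When only the 2 compared ages entered the fit, with few residual degrees of freedom, the members called were 4 instead of 8 from E13 to E17 and 0 instead of 2 from P60 to Y2, genes called from P60 to Y2 were 318 instead of 4548, and gene and step calls 20679 instead of 31551. Leaving out 1 library gave 3469 to 6582 genes (main 5273) and 4 to 8 members from E13 to E17, 2866 to 6042 genes and 1 to 3 members from P60 to Y2, and 26693 to 44374 gene and step calls. The counts of 4 members from E17 to P7 and 4 from P7 to P60 were the same in every alternative. The ratios kept their direction in every setting. With a pseudocount of 0.1 the differences were -3.36 for Rec8 to Rad21, -5.89 for Rad21l to Rad21, -6.43 for Smc1b to Smc1a, -6.13 for Stag3 to Stag1 and -6.52 for Stag3 to Stag2. With the mean of each age as 1 value, an alternative added after seeing the data, they were -2.38, -2.84, -4.76, -3.82 and -4.18 as before. The exact permutation p was then 0.1 for the 4 ratios other than Rad21l to Rad21, the smallest for 3 ages against 3. A fit without both Y2 libraries was likewise added after seeing the data. Replicate numbers did not pair the libraries: deviations of same-numbered libraries correlated at -0.129 to 0.265 over 55 pairs of ages, and 1 pair exceeded 0.1. With replicate number as a block, 5152 genes were called from E13 to E17, 5916 from E17 to P7, 5583 from P7 to P60 and 4459 from P60 to Y2. Members called were then 7, 4, 4 and 2. Depth limits Rad21l, Smc1b and Stag3 in adults, where values rest on 16.0 reads or fewer in the Y2 libraries.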
